A study of Mus musculus with 19 samples.

Results

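The 45 nuclear receptor genes among the 22367 protein-coding genes annotated on the mouse assembly were examined for binding of YAP and TEAD in the liver. The rule takes them by name as members of the receptor superfamily and uses no measured value. The members were nevertheless chosen with earlier results of these data known. The genes were sorted by textbook knowledge into 16 receptors with a known role in the liver, 10 that are not active in the adult liver and 19 others. Chromatin immunoprecipitation followed by sequencing (ChIP-seq) had been performed on C57BL/6 mouse liver with an antibody against YAP or one against TEAD, and 19 samples formed 6 groups. Every animal carried ROSA26-rtTA-IRES-EGFP and ate doxycycline food. WT livers, without the tetYAP transgene, came from mice fed doxycycline for 7 days, and tetYAP livers, in which doxycycline switches on an activated YAP (the S127A mutant in the study's methods), from mice fed for 3 days (3 d) or 7 days (7 d). According to the study's methods an albumin-driven Cre recombinase placed the inducer in hepatocytes, while the chromatin came from whole liver, so fewer cells bound and less binding per cell cannot be told apart. The TEAD antibody recognises more than 1 TEAD protein. Each group had 3 replicates, or 4 for TEAD at 7 d, and the authors merged them into 1 peak list. No spread between replicates can therefore be given, and no difference between conditions was tested. Each 95% interval below, Wilson or exact Poisson, covers the counting of genes or peaks only. The lists hold no expression values, so the tissue label could not be checked against marker genes, nor could the expression of any receptor.

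Most nuclear receptors are transcription factors that bind DNA as monomers, homodimers or heterodimers, the latter often with a retinoid X receptor. Many of them are switched by small lipophilic ligands such as steroids, thyroid hormone, retinoids, bile acids, oxysterols and fatty acids. In hepatocytes they control bile acid, lipid, glucose and xenobiotic metabolism and the daily rhythm of these pathways. YAP, the coactivator restrained by the Hippo pathway, does not bind DNA itself and is brought to chromatin mainly by TEAD factors.

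TEAD peaks lay at 23 of the 45 receptor genes in WT livers and at most of them after YAP induction, and YAP peaks lay at 6 of them after the longer induction. The window searched was the gene body with 10 kb on either side. In WT livers the 23 genes were 51.1% of the members (interval 37.0 to 65.0), against 20.1% of the 22322 other protein-coding genes. The 3 d list placed a TEAD peak at 37 (82.2%, 68.7 to 90.7), against 58.8% of the other genes, and the 7 d list at 39 (86.7%, 73.8 to 93.7), against 59.6%. The YAP lists of WT livers and of 3 d placed no peak at a receptor gene, while 0.116% and 0.161% of the other genes held one, and the 7 d list placed peaks at 6 (13.3%, 6.26 to 26.2), against 4.78%. A promoter TEAD peak, one overlapping the stretch from 2000 bp before to 1000 bp after any annotated start, was listed for 10 receptor genes in WT livers (22.2%, against 8.66% of the others). The 3 d list had one for 30 (66.7%, against 38.8%) and the 7 d list for 25 (55.6%, against 37.5%). A promoter YAP peak was listed for 1 receptor gene at 7 d (2.22%, against 1.03% of the others) and for none in the other YAP lists (against 0.0358% in WT livers and 0.0717% at 3 d).

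Receptor genes are long and have many starts, which gives a peak more room. Their median gene body was 47.1 kb with 5 annotated starts, against 15.4 kb and 2 starts for the other genes. Counted per length, receptor windows held 0.708, 4.33 and 4.33 TEAD peaks per 100 kb in the WT, 3 d and 7 d lists, against 0.347, 2.27 and 2.37 in the windows of the other genes. The exact Poisson intervals of the receptor windows (0.508 to 0.96, 3.81 to 4.9 and 3.81 to 4.9) lay above these. Promoter sequence of receptor genes held 3.14, 15.7 and 12.5 TEAD peaks per 100 kb (1.57 to 5.61, 11.8 to 20.4 and 9.12 to 16.8), against 1.57, 9.58 and 9.22, so that at promoters the intervals for WT and 7 d reached down to the other genes' values. For YAP at 7 d the window density was 0.104 peaks per 100 kb (0.038 to 0.225, exact Poisson interval), an interval that includes the 0.0809 of the other genes. Per length of window, the 45 receptor genes as a set thus held more TEAD peaks than other genes in all 3 lists. This excess was not common to all classes. Outside the liver class, the 29 receptors held 0.384, 2.66 and 2.9 (0.205 to 0.657, 2.14 to 3.27 and 2.35 to 3.53). These intervals include the other genes' values. Of the 29, the 19 other receptors held 0.496, 3.26 and 3.35, with lower bounds of 2.58 at 3 d and 2.66 at 7 d, above the other genes. The 10 inactive ones held 0.104, 1.14 and 1.77, below the other genes in each list. Only their 3 d interval (0.57 to 2.04) lay wholly below, while those of WT (0.00263 to 0.579) and 7 d (1.03 to 2.83) included the other genes' values. At promoters the interval of all 45 receptors lay above the other genes in the 3 d list alone. For YAP the 6 peaks at 7 d left a difference undetectable.

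**Figure D1:**
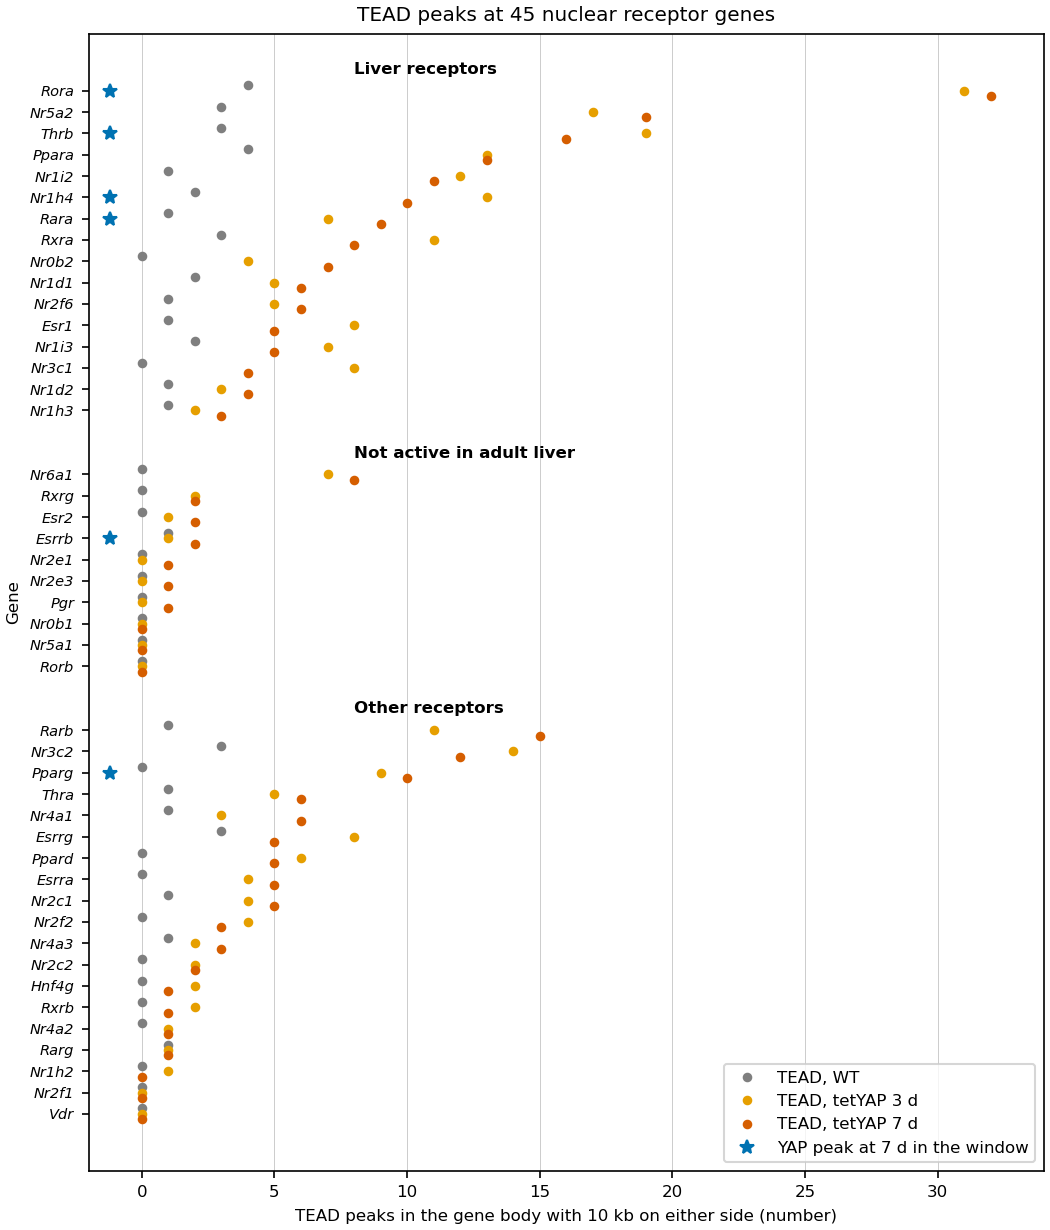
Number of TEAD peaks in the gene body with 10 kb on either side (x axis) for each of the 45 receptor genes (y axis), grouped by class, in the lists from WT livers (grey) and from tetYAP livers at 3 d (yellow) and 7 d (red). Each point is 1 merged peak list. Stars mark the 6 genes with a YAP peak at 7 d. Rora, with 4, 31 and 32 peaks, holds the most, and 5 genes have none in any list.

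The TEAD lists differ in size, with 5695, 36446 and 38984 peaks for WT, 3 d and 7 d, from 35168765, 55032002 and 38523843 tags. When the 2 induced lists were cut to their 5695 strongest peaks by −log10 p-value, 22 receptor genes held a window peak at 3 d and 22 at 7 d, beside 23 in WT livers, and 9 and 9 held a promoter peak, beside 10. The other genes then came to 19.7% and 18.1%. The higher counts at receptor genes after induction came with the longer lists, and the part of depth, of the 400 bp fragment length used for the WT list (207 and 206 bp for the others) and of the transgene in that was not tested.

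Receptors with a liver role held TEAD peaks more often and more densely than those not active there. Among the 16 liver receptors, 14 held a TEAD peak in WT livers (87.5%, 64.0 to 96.5), and all 16 did in both induced lists (lower bound 80.6%). Among the 10 receptors not active in the liver, 1 did in WT livers (1.79 to 40.4%), 4 after the shorter induction (16.8 to 68.7%) and 7 after the longer one (39.7 to 89.2%). The 19 other receptors were in between, with 8, 17 and 16. Promoter TEAD peaks were listed at 6, 15 and 13 liver receptors, at 0, 3 and 3 of the inactive ones and at 4, 12 and 9 of the others. Per 100 kb of window the liver receptors held 1.19, 6.79 and 6.50 TEAD peaks, and the inactive ones 0.104, 1.14 and 1.77. The intervals of the densities of these classes did not overlap in any of the 3 TEAD lists (liver 0.799 to 1.71, 5.79 to 7.91 and 5.53 to 7.60, and inactive 0.00263 to 0.579, 0.57 to 2.04 and 1.03 to 2.83). These intervals count each peak as separate and hold no spread between genes. Nr6a1 alone held 7 of the 11 peaks of the inactive class at 3 d and 8 of 17 at 7 d. With the induced lists cut to 5695 peaks, 12 of 16 liver receptors held a peak in each, against 1 and 2 of 10 inactive ones.

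**Figure D2:**
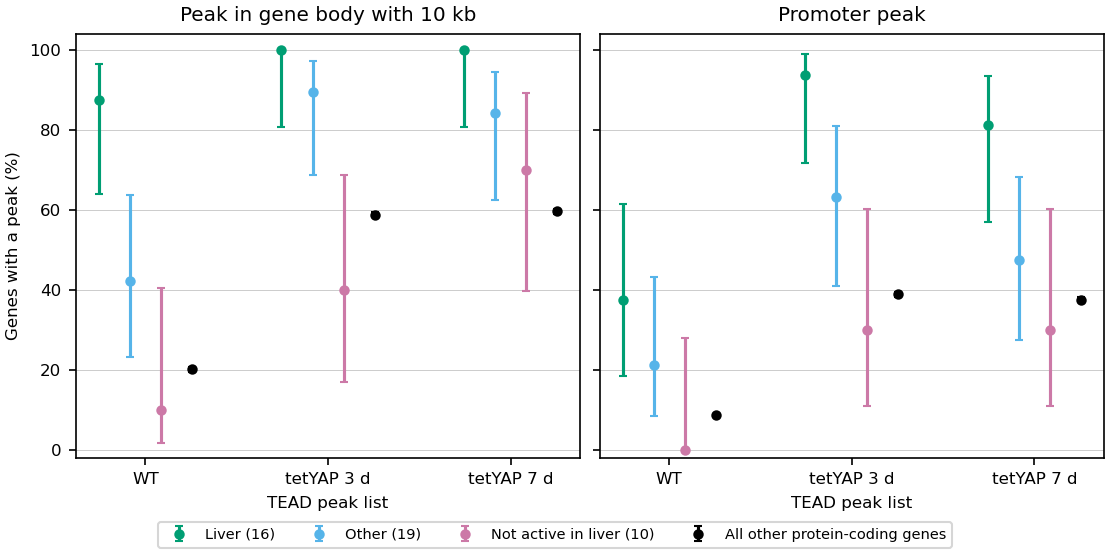
Percentage of genes with a TEAD peak in the window (left) and at a promoter (right) in the 3 TEAD lists, for liver receptors, other receptors, receptors not active in adult liver and the 22322 other protein-coding genes. Points are the shares and bars are 95% Wilson intervals over genes. Liver receptors lie above the other protein-coding genes in every list, from 14 of 16 in WT livers to 16 of 16 in both induced lists in the left panel.

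The sensors of bile acids, oxysterols and xenobiotics each held TEAD peaks. Nr1h4, the bile acid receptor FXR, held 2, 13 and 10 in the WT, 3 d and 7 d lists, the order of all values below. Nr1h3, the oxysterol receptor LXRα, held 1, 2 and 3. Of these, 1 in each induced list lay at the promoter of its neighbour Madd, and the peak found in all 3 lists also lay at that of Acp2. The xenobiotic receptors Nr1i2 (PXR) and Nr1i3 (CAR) held 1, 12 and 11 and 2, 7 and 5, though 3 of the 5 at Nr1i3 at 7 d lay at the promoters of its neighbours Apoa2 or Tomm40l. Nr5a2, the LRH-1 receptor that drives bile acid synthesis genes, held 3, 17 and 19 over a gene body of 117 kb, among the 3 highest counts. Nr0b2, which encodes SHP, the repressor that FXR induces in bile acid feedback, held 0, 4 and 7. With a gene body of only 3.16 kb, Nr0b2 had the highest density of all members at 7 d, 30.2 TEAD peaks per 100 kb of window. Of its 7 peaks, 3 lay at the promoter with fold enrichments of 5.18, 4.71 and 6.85, and 1 lay at the promoter of the neighbouring Nudc. All 6 genes of this group carried more peaks in both induced lists than in WT livers. The windows of the other genes also held more, with 0.347, 2.27 and 2.37 TEAD peaks per 100 kb. The share of other genes with such a rise was not taken.

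The lipid, retinoid and thyroid hormone receptors of the liver were bound at several places each. Ppara, the fatty acid receptor that drives hepatic fat oxidation, held 4 peaks in WT livers and 13 in each induced list. Rxra, the shared heterodimer partner, held 3, 11 and 8. Rara, a retinoic acid receptor, held 1, 7 and 9, and Thrb, the main hepatic thyroid hormone receptor, held 3, 19 and 16. Among the relatives placed with the other receptors, Pparg, the adipocyte fatty acid receptor, held 0, 9 and 10, Ppard 0, 6 and 5, Rarb 1, 11 and 15, Rarg 1 in each list and Rxrb 0, 2 and 1. At 7 d the highest fold enrichment of any member was at Rarb (46.19), and the highest −log10 p-value at Thrb (282.89, against 246.17 at Rarb), while the only WT site of Rarb was the 1 site whose enrichment was lower at 7 d than in WT livers (4.92 in WT, 6.07 at 3 d, 4.34 at 7 d). Thra held 1, 5 and 6 peaks, but its window overlaps that of Nr1d1 and these peaks are shared with it in part.

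The clock and steroid receptors placed with the liver receptors also held more peaks in both induced lists than in WT livers. Nr1d1, the REV-ERBα repressor of the clock, held 2, 5 and 6 peaks (21.9 per 100 kb at 7 d, the second density), Nr1d2 held 1, 3 and 4, and Rora, their activating counterpart at the same elements, held 4, 31 and 32 over 734 kb, or 0.53, 4.11 and 4.24 per 100 kb. Nr2f6, an orphan receptor with 1, 5 and 6 peaks, had the third density, 21.6 per 100 kb, and 2 of its 7 d peaks lay at the promoters of Use1 and Ocel1. Nr3c1, the glucocorticoid receptor, held 0, 8 and 4, and Esr1, the oestrogen receptor, 1, 8 and 5, with no promoter peak. Nr3c2, the mineralocorticoid receptor, held 3, 14 and 12. Of the Nr4a orphan receptors, which are immediate early genes, Nr4a1 held 1, 3 and 6, Nr4a2 held 0, 1 and 1 and Nr4a3 held 1, 2 and 3.

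Receptors not active in the liver held few peaks, Nr6a1 excepted. Nr6a1, a germ cell receptor, held 0, 7 and 8, up to 4 of them at promoters. Esrrb, an oestrogen-related receptor of pluripotent cells, was the only inactive receptor with a WT peak and held 1, 1 and 2. Rxrg held 0, 2 and 2 and Esr2 0, 1 and 2, while Nr2e1, Nr2e3 and Pgr, which encode receptors of the brain, the retina and the reproductive tract, each had 1 peak, at 7 d alone and with fold enrichments of 4.34 to 4.71. No peak was listed in any of the 6 lists at Nr0b1, Nr2f1, Nr5a1, Rorb or Vdr. The remaining members (Esrra, Esrrg, Hnf4g, Nr1h2, Nr2c1, Nr2c2 and Nr2f2) held 0 to 3 peaks in WT livers and 0 to 8 in the induced lists. The number of peaks went with gene length across the 45 members (Spearman's rho 0.338, 0.482 and 0.407 in the 3 TEAD lists, a description over genes that share libraries).

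No receptor gene lost its window or promoter TEAD peak by 7 d, against 0.112% and 0.0672% of the other genes. Of the 22 without one in WT livers, 14 were listed with a window peak at 3 d and 16 at 7 d, which is 31.1% and 35.6% of the 45, against 38.8% and 39.6% of the other genes, of which a larger share had no WT peak to begin with. A promoter peak was gained by 20 at 3 d and by 15 at 7 d (44.4% and 33.3%, against 30.2% and 28.9%). A promoter peak at 3 d alone was listed for 5 members (11.1%, against 5.14% of the other genes). These were Hnf4g, Nr2c2, Nr3c1, Rora and Rxrb, with fold enrichments at 3 d of 3.94 to 5.91. No member had one at 7 d alone, against 3.85% of the other genes. Merging overlapping TEAD peaks gave 306 sites at receptor genes. Of these, 41 were listed in all 3 lists (13.4%, against 11.5% at the other genes), 152 at 3 d and 7 d but not in WT livers (49.7%, against 47.1%), 57 at 3 d only (18.6%, against 18.7%) and 56 at 7 d only (18.3%, against 22.2%). Every WT site was also listed at 3 d and at 7 d. Most WT sites at the other genes were too: 4129 were in all 3 lists. Another 120 were in the WT and 3 d lists only, 26 in WT and 7 d only and 40 in WT only. The fold enrichment of the 41 was higher at 3 d than in WT livers at all 41, against 98.3% of such sites at the other genes. The median ratio was 2.43, against 2.27. At 7 d it was higher than in WT livers at 40 (97.6%, against 98.8%), with a median ratio of 3.27, against 3.11. Most member peaks lay in introns: at 7 d these were 62.1% of the 256 pairs of a gene and a peak, and 17.2% were promoter peaks. The windows hold whole gene bodies and no such shares were taken for the other genes, so this describes the member windows only.

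At promoters the strongest TEAD peaks were at Nr1h3, Rara, Nr1d1, Rarg, Nr4a3, Ppara and Rxra. The Nr1h3 promoter peak (chr2:91042657-91043339 at 7 d, in an exon) had fold enrichments of 10.24, 30.37 and 38.41, first among members in each list by −log10 p-value (49.92, 199.55 and 192.4). It also lies at the promoter of Acp2, a neighbour, and cannot be given to 1 of the 2 genes. The Nr1d1 promoter peak had fold enrichments of 7.83, 16.85 and 30.9, with its summit 260 bp before the start at 7 d. At Nr4a3 the summit lay 46 bp before the start at 7 d, with 7.05, 24.13 and 27.33. At Rxra the values were 5.58, 19.21 and 22.39, and at Rarg 7.31, 17.73 and 24.74, in an intron before an internal start. At Rara they were 9.17, 25.28 and 24.74. Ppara had promoter peaks at several sites, with 2, 4 and 3 peaks in the lists. Its 2 strongest sites were one at the edge of the promoter that reaches into it at 3 d alone (7.12, 24.44 and 25.08) and one whose summit lay 1165 bp before the start in WT livers and at 7 d (5.18, 19.21 and 21.44). A further one in an intron, before an internal start, was in all 3 lists (4.52, 9.85 and 18.62), and 1 close to the first start was listed after induction only (5.06 and 6.22). Each of these 7 promoters was listed in all 3 lists, and at each the fold enrichment in both induced lists was above that in WT livers. Over all TEAD sites shared with the WT list, the same held for 98.3% at 3 d and 98.6% at 7 d. Another 23 receptor genes had a promoter peak in at least 1 list, 3 of them (Nr1d2, Nr3c2 and Nr4a1) in WT livers. Sequence of the mm9 assembly, plus strand, from 100 bp before to 100 bp after the TEAD summit at 7 d is shown for the Nr1d1 and Rarg peaks, whose stretch holds no exon, with matches to GGAATG, the core of the TEAD motif, on either strand in capitals. Nr1d1 holds no match and Rarg holds 2.
Nr1d1, chr11:98636807-98637007: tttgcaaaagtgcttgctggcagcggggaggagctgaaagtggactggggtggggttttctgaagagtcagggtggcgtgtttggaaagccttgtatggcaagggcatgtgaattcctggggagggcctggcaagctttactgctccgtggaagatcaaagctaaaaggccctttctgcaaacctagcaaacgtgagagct
Rarg, chr15:102077434-102077634: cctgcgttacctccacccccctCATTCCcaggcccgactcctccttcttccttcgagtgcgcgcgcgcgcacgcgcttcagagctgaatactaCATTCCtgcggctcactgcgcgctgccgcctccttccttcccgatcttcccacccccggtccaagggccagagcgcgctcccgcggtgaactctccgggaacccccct

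**Figure D3:**
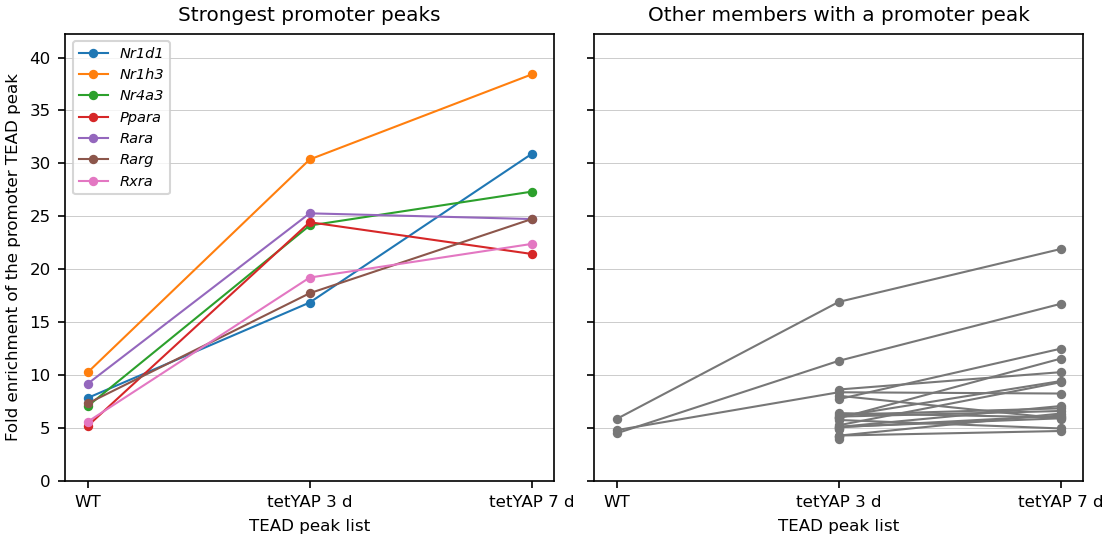
Fold enrichment (y axis) of the strongest promoter TEAD peak of each receptor gene in the WT, 3 d and 7 d lists, for the 7 genes named for the highest −log10 p-values (left) and for the 23 other members with a promoter peak (right). Each point is 1 peak in 1 merged list, and lines join the values of 1 gene, which at some genes (Ppara among them) belong to different peaks in different lists. Nr1h3 is highest, from 10.24 to 38.41.

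The 6 receptor genes with a YAP peak at 7 d were Esrrb, Thrb, Rara, Rora, Nr1h4 and Pparg, of which 4 are liver receptors. The Esrrb peak (chr12:87814611-87815038, intron, 3745 bp from the nearest start) came with an enrichment of 8.95-fold, at rank 156 of the 1478 YAP peaks by −log10 p-value. The Thrb peak (chr14:18532626-18532948, intron, 39.3 kb from the start) had 7.23, at rank 198. The Rara peak (chr11:98797275-98797636) had 7.64, at rank 288, and was the only one at a promoter, with its summit 1541 bp before an internal start. The Rora peak (chr9:69029278-69029549, intron, 13.9 kb before the nearest start) had 7.42, at rank 344. The Nr1h4 peak (chr10:88989825-88990107, intron, 6.39 kb from the nearest start) had 5.24, at rank 1058, and the Pparg peak (chr6:115443819-115444130, downstream of the gene, 71.8 kb from the nearest start) had 4.58, at rank 1370. None was within the strongest 10% of the list, and the median over the 6, 7.33, stood beside 5.72 for the whole list.

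Each YAP peak lay on a TEAD peak of both induced lists, as did most YAP peaks at TEAD sites elsewhere: of 955 TEAD sites with a YAP peak at the other genes, 543 were in all 3 TEAD lists and 336 in both induced lists alone. At the Thrb site the TEAD fold enrichment was 3.59, 21.24 and 39.69 in the WT, 3 d and 7 d lists. At the Nr1h4 site it was 7.84, 19.04 and 39.59, and at the Esrrb site 4.79, 11.49 and 36.52. At the Rora site it was 10.9, 23.31 and 30.4. At the Rara site it was 9.17, 25.28 and 24.74, the only one of the 6 not higher at 7 d than at 3 d. The Pparg site had no TEAD peak in WT livers and then 21.67 and 31.1. The TEAD summit at 7 d lay 5 bp from the YAP summit at Thrb, 7 bp at Nr1h4, 14 bp at Esrrb, 41 bp at Rora, 57 bp at Rara and 149 bp at Pparg. Of the 6, 5 were among the 41 sites listed for TEAD in all 3 lists, WT livers included, beside the 543 of 955 at the other genes.

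**Figure D4:**
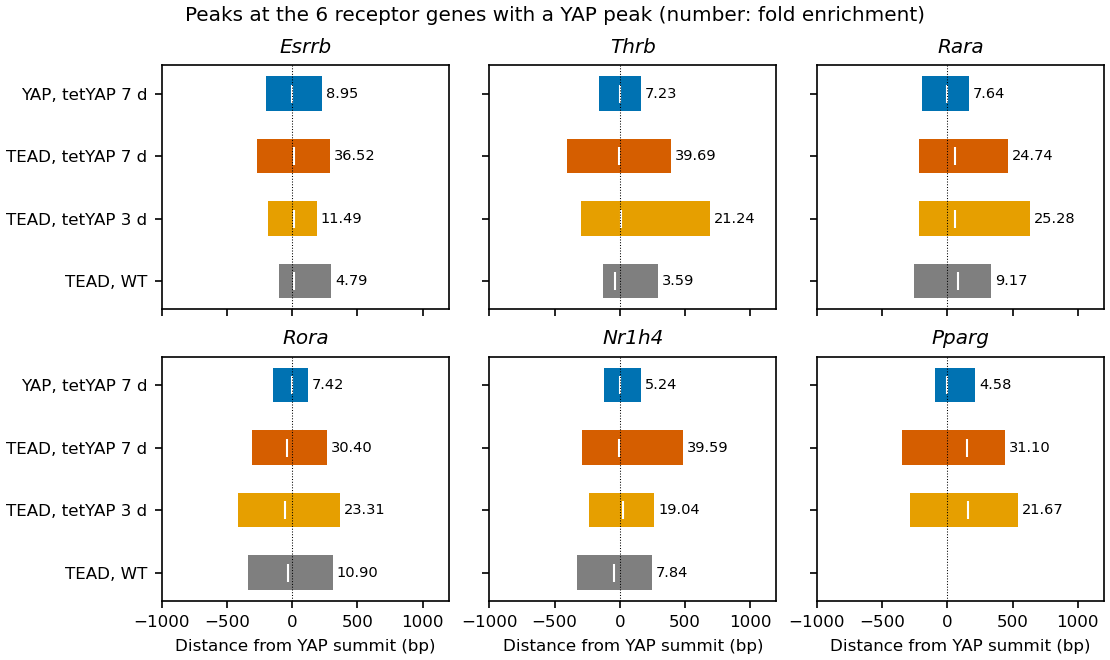
Extent of the YAP peak at 7 d (blue) and of the TEAD peaks at 7 d (red), 3 d (yellow) and in WT livers (grey) at the 6 receptor genes with a YAP peak, as distance in bp from the YAP summit (x axis), with 1 row for each peak list. White ticks are summits and the numbers are fold enrichments. TEAD peaks overlap the YAP peak in every panel, and the WT row is empty at Pparg.

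The sequences under these YAP summits, 100 bp to each side on the plus strand of the mm9 assembly, are printed to show where the TEAD motif stands, with GGAATG on either strand in capitals. They hold no annotated exon. The motif was present at 4 of the 6: its middle lay within 1 bp of the summit at Esrrb, 2 bp at Nr1h4, 10 bp at Rora and 46 bp at Rara, and it was not found in the windows of Thrb and Pparg. Nr1h4 holds 2 matches, and between them a match to the AP-1 motif TGACTCA (read here from the other strand).
Esrrb, chr12:87814712-87814912: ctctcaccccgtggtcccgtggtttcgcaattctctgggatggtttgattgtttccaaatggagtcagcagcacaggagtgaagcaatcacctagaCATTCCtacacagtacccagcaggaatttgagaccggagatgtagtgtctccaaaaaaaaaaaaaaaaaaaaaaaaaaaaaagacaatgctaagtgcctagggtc
Thrb, chr14:18532686-18532886: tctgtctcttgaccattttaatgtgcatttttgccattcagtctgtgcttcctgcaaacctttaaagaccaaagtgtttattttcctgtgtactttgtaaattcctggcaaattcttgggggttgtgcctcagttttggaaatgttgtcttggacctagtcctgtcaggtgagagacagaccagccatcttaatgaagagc
Rara, chr11:98797371-98797571: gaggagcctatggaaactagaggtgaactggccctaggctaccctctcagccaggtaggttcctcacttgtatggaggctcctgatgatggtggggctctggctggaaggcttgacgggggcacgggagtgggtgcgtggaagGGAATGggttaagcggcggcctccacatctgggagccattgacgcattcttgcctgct
Rora, chr9:69029329-69029529: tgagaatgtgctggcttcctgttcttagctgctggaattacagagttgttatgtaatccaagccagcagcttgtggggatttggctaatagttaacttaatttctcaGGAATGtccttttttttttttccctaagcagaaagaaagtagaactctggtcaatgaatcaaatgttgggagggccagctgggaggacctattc
Nr1h4, chr10:88989843-88990043: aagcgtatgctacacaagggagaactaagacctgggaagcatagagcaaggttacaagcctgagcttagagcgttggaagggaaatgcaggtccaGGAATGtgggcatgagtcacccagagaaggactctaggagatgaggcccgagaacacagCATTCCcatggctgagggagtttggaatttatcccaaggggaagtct
Pparg, chr6:115443816-115444016: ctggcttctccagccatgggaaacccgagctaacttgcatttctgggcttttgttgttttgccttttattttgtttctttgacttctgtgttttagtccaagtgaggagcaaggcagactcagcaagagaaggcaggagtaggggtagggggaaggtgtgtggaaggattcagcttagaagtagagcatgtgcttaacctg

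Over all YAP peaks at 7 d placed on a chromosome, 59.0% of 1456 held GGAATG within 100 bp of the summit. Of the TEAD peaks at receptor genes, 61.0% of 41 held it in the WT list (45.7 to 74.3), 33.1% of 251 in the 3 d list (27.5 to 39.1) and 35.9% of 251 in the 7 d list (30.2 to 42.0), against 48.6%, 30.4% and 35.2% of all peaks of these lists. These intervals include the shares of all peaks. The motif was present in all 4 WT peaks of Rora and in none of the 3 of Nr5a2. TGACTCA was found at 2.44%, 3.98% and 5.18% of the TEAD peaks at receptor genes, against 4.77%, 4.67% and 6.04% of all. At Nr1h4 it stood in 1, 2 and 2 of the TEAD peaks, at Nr0b2 in the peak nearest its start in both induced lists. A direct repeat of AGGTCA with any 1 base between, a receptor element read on either strand, was found in 1 of the 251 peaks at 3 d (an Esrrg peak with a fold enrichment of 4.22) and in none at WT or 7 d, and in 0.0528%, 0.0961% and 0.1% of all peaks.

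Genes for the proteins that work with the receptors also held TEAD peaks. Of 25 coregulator genes, 12, 24 and 25 held a window TEAD peak in the 3 lists (the first 48.0%, the second 96.0%), beside the 20.1%, 58.8% and 59.6% given above. Their median gene body was 83.2 kb, and their density of TEAD peaks was 0.498, 4.34 and 4.37 per 100 kb. YAP peaks at 7 d were listed at some of them, among which were Nrip1, the corepressor RIP140 (fold enrichment 7.42, rank 331), Ncoa4 (6.11, rank 666), Smarcd1, a subunit of chromatin remodelling complexes (6.11, rank 671), and Pprc1, a coactivator of the PGC-1 family (5.89, rank 759). Those at Ncoa4 and Pprc1 were at promoters. At the Nrip1 site the TEAD fold enrichment was 7.31, 26.92 and 44.77 in the 3 lists.

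Hepatic target genes of the receptors were also bound. Of 42 such genes found in the annotation, 19, 37 and 39 held a window TEAD peak (45.2%, 88.1% and 92.9%, against 20.1%, 58.8% and 59.6% of the genes that are not receptors), and 9, 34 and 33 held one at the promoter (21.4%, 81.0% and 78.6%, against 8.66%, 38.8% and 37.5%), with densities of 1.26, 7.9 and 8.07 per 100 kb. Those without one in either induced list were Cyp24a1, Mylip and Osta. YAP peaks at 7 d lay at 8 of the 42 targets (against 4.78%), which were Ugt1a1, Angptl4, Per1, Vnn1, Fkbp5, Abcg5, Abcg8 and Pck1. Per1, a clock gene that glucocorticoids induce, had a YAP fold enrichment of 6.33 and TEAD values of 11.96, 28.4 and 39.12. Angptl4, a PPAR target that inhibits lipoprotein lipase, had 6.55, and Vnn1, a PPARα target, 6.09 close to its start. Fkbp5, a glucocorticoid target, had 5.27. Abcg5 and Abcg8, the sterol exporters that LXR induces, share 1 promoter peak of 5.24. Ugt1a1, a bilirubin-conjugating enzyme, was the only gene of the receptors, coregulators and targets with YAP peaks in the WT or 3 d list. It held 12 in WT livers, which lack the transgene, and 13 at 3 d, beside 17 at 7 d. Its YAP fold enrichment of 5.88 at 7 d stands in that cluster of peaks.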

How the data were processed

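ChIP-seq for YAP and TEAD was made from mouse liver in 19 samples of 6 groups, taken from the sample labels. According to the study's methods and the processing notes, the authors aligned the reads to mm9 with BWA 0.6.2, merged the replicates and removed duplicates. The file headers name MACS 2.0.9 as the peak caller, with a cutoff of p 1e-05 against 1 control library of 167176362 tags, which the study's methods take from published data. The merged libraries held 34260362 to 55032002 tags. In the deposited lists the pileup is a signal, the height of the fragment pile at the summit. The deposited fold enrichment is the ratio of pileup to local background. Each peak also has a −log10 p-value, as deposited, and a −log10 q-value.

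The members and gene lists were chosen with earlier results of these data known. Genes, starts and exons were taken from GENCODE for NCBIM37, the mm9 sequence. No peak ended beyond a chromosome of this assembly. Peaks on unplaced sequence could not be set at a gene. A gene held a peak when its body with 10 kb on either side overlapped one by at least 1 bp. Densities used merged windows, each peak counted once, and exact Poisson intervals. Members with a YAP peak, the 5 highest promoter TEAD peaks by −log10 p-value in each list, the 3 highest TEAD counts and densities at 7 d and members without a peak were named by rule, and genes were added after their values were seen in the account by receptor role. The overlap code was tested on simulated data. Analyses used Python 3.11.15, pandas 2.3.3 and scipy 1.17.1. Alternatives changed the flank, promoter, overlap, peak threshold, list size, starts, classes and chromosomes. Of 44 listed targets, 2 names were not matched and are synonyms of others in the list. The YAP result of 1 coregulator is not reported here.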

Additional observations from a re-analysis of the deposited data

How the results depend on the processing

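Of 233 values recomputed under the alternatives, 214 stayed within the counting interval of the reported value (counts within 1.5 times of it), 18 moved beyond and 1 reversed. With 50 kb on either side, the excess of receptor genes with a window TEAD peak over the other genes came to 13.4 percentage points for the WT list (31.1 with 10 kb) and 14.2 for the 7 d list (27.1), TEAD densities to 3.65 and 3.67 per 100 kb for the 3 d and 7 d lists (4.33 and 4.33), and 10 members held a YAP peak at 7 d (6). With a −log10 p-value of at least 10 these densities were 3.54 and 3.64, and with a fold enrichment of at least 5 the densities were 0.38 (0.708), 2.66 and 3.69 for WT, 3 d and 7 d. With the 5695 strongest peaks of each list, 22 and 22 members held a window peak (37 and 39) and 9 and 9 a promoter peak (30 and 25) at 3 d and 7 d, densities were 0.742 and 0.621, and the promoter excess at 3 d was 12.3 percentage points (27.9). With promoters narrowed to 1000 bp around a start no member held a promoter YAP peak at 7 d (0, against 1), and the difference from the other genes reversed from 1.19 to -0.869 percentage points, so the 1 promoter YAP peak, at Rara, depends on the promoter definition. Because the intervals of 16 against 10 genes are wide, differences between liver and inactive receptors could stay within them and yet change by over 1.5 times. The window difference at 7 d was 60.0 percentage points with the p-value minimum, 60.0 with the fold minimum and 55 with the strongest peaks (30 as reported), the promoter differences with the strongest peaks were 31.2 at 3 d and 31.2 at 7 d (63.7 and 51.2), and the YAP window difference with 50 kb was 33.8 (15.0). Against all 29 other members, the liver receptors' excess was 27.6 for the 3 d window (60.0), 23.7 for the WT promoter (37.5) and 42.0 for the 3 d promoter (63.7). The excess of all members over other genes at 3 d was 13.6 with 50 kb (23.4). Values moved by leaving out peaks have fewer peaks by construction. Without flanks, by summits, by starts of protein-coding transcripts and by chromosomes, no value left its interval or changed by over 1.5 times. No paired analysis was possible because each list came from merged replicates, pooled before peaks were called, and for the same reason no replicate could be left out.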
